A study of Homo sapiens with 12 samples.

Results

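DNA replication and licensing genes were described here in K562, an established cell line of erythroid character derived from a chronic myelogenous leukaemia. The 36 genes were chosen by name and function, not by a measured value, out of 29939 coding and long non-coding genes for which a span and a strand could be set. Every library came from this 1 line, and the control groups carried the same label as the groups they were compared with: all 8 RNA libraries came from cells that had received 500 µM 4-thiouridine (4sU), a uridine analogue taken up into new RNA, for 5 min. The names of the RNA libraries label the cells wild type. In TT-Seq, 2 libraries, the RNA was broken by sonication and the labelled pieces were then purified. In 4sU-Seq, 2 libraries, labelled RNA was purified without breaking it. Total RNA-Frag-Seq, 2 libraries and called sheared total RNA here, was broken and not purified. Total RNA-Seq, 2 libraries and called unsheared total RNA, was neither broken nor purified. RNA polymerase II was mapped in 4 further libraries by chromatin immunoprecipitation (ChIP) after 7.5 min of formaldehyde crosslinking, 2 with an antibody to the form phosphorylated at serine 2 of its tail repeat (S2P ChIP) and 2 with the antibody N-20 (N20 ChIP). The series' design text calls the RNA samples biological duplicates, and nothing in the labels says from which cultures the ChIP libraries came, so p-values measure the spread between these libraries only, which for ChIP may be technical.

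DNA replication starts at origins that are licensed while cells are between division and DNA synthesis. The origin recognition complex, CDC6 and CDT1 load the ring-shaped MCM helicase onto DNA, and geminin blocks further loading by binding CDT1. The helicase is then activated with CDC45 and the GINS complex, after which primase and the DNA polymerases copy both strands with the sliding clamp PCNA, its loader RFC and the single-strand binding protein RPA. Many of these genes are classic targets of E2F factors, which act when cells enter DNA synthesis, and K562 is a fast dividing line. In RNA from a whole culture, fewer cells in one phase of the cycle and less RNA per cell cannot be told apart.

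Promoters are shown because the polymerase signal at gene starts is compared between the antibodies below. Of the 36 genes, 31 had an entry among the RefSeq promoters (GRCh38.p14). The 250 bases before the start were searched on both strands for an E2F site, in the form TTTCGCGC or TTTGGCGC, and for the CCAAT box, CCAAT, the site of the factor NF-Y. An E2F match was present in 4 of the 31 (12.9%) against 272 of all 27305 promoters (0.996%), and a CCAAT match in 20 of the 31 (64.5%) against 9021 (33.0%). The median GC content was 64.8% against 58.0%. These are letter matches to the exact forms given, in 1 window. Other forms of the sites were not searched, so a promoter without a match may still hold one, and binding was not tested. The 4 promoters with an E2F match and that of CDC45, which held the most CCAAT matches, are given 5′ to 3′ on the strand of the gene, ending at the base before the start that the promoter table lists, with the matched letters in capitals:
MCM6, chr2:135876444-135876693, minus strand: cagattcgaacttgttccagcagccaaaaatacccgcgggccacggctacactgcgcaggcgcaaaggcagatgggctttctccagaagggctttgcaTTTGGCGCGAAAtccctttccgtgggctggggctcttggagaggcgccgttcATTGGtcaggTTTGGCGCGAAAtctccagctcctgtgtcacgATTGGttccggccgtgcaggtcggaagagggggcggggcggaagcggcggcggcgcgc
MCM7, chr7:100101398-100101647, minus strand: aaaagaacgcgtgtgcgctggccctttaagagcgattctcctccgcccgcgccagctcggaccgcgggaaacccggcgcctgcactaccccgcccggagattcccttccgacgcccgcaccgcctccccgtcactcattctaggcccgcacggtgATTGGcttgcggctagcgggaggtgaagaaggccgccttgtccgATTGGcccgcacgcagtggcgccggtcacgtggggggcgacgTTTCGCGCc
POLA1, chrX:24693668-24693917, plus strand: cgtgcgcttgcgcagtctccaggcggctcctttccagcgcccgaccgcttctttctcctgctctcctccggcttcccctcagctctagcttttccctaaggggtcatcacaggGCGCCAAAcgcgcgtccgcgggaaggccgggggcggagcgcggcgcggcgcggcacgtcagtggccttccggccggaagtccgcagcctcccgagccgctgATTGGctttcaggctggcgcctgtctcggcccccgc
POLE, chr12:132687343-132687592, minus strand: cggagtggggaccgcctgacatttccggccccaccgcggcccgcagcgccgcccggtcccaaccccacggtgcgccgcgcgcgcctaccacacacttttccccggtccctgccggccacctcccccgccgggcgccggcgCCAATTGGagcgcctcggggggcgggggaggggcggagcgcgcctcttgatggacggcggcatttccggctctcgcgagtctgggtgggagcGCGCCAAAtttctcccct
CDC45, chr22:19479670-19479919, plus strand: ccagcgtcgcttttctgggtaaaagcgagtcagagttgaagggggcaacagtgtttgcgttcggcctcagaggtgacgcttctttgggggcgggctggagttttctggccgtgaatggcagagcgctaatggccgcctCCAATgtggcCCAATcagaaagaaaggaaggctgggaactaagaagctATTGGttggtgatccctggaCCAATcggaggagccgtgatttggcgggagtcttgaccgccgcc

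The MCM6 promoter held 4 E2F matches as 2 overlapping pairs on opposite strands, from 152 to 141 and from 90 to 79 bases before the start, and 2 CCAAT boxes. In MCM7 the E2F match lay 9 to 2 bases before the start. POLA1 and POLE each held 1 E2F match, and the 2 CCAAT matches of POLE overlapped in opposite directions. CDC45 held 4 CCAAT boxes from 112 to 40 bases before the start and no E2F match in either exact form. Its listed start, 19479920, lies inside its span, which begins at 19479466, so these bases are within the span.

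Counts summed over all bins (M for mega) were 68.9 and 71.3 M in TT-Seq, 47.1 to 54.3 M in 4sU-Seq, 33.3 to 43.1 M in sheared total RNA, 25.9 to 30.4 M in unsheared total RNA, 34.5 to 73.7 M in S2P ChIP and 12.6 to 23.3 M in N20 ChIP. After filtering, 18489 genes were tested in RNA and 28338 in ChIP, and all 36 members passed in both. Duplicates differed by more than counting noise in every group, with chi-square per degree of freedom from 2.85 in unsheared total RNA to 41.6 in S2P ChIP. This value grows with depth and with any scaling of the counts, so it does not rank the groups. Spearman's rho between duplicates ran from 0.983 in S2P ChIP to 0.998 in TT-Seq. Library 2 of S2P ChIP stood apart from library 1 in its signal at gene starts, so results that rest on S2P ChIP are given below with each of the 2 left out. Every non-zero ChIP bin count was even. Of the 10 K562 markers, 6 were in the gene table and had a summed level of 522 to 657 CPM over the RNA libraries. The largest part of this sum was TFRC, at up to 436 CPM, and EPOR was at or below 7.92 CPM in every library. Of 12 markers of other cell types, 5 were in the table, summing to 28.5 to 60.6 CPM, most of it EPCAM at up to 34.4 CPM. LYZ reached 16.6 CPM, and CD14 was at or below 0.141 CPM in every library. None of those tabulated was at 0 in all RNA libraries, and the part of other cells in the results was not tested.

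Levels are given in CPM, counts scaled to the depth of each library with edgeR's TMM factors, with exons and introns of a gene counted together. To compare genes they are divided by the length of the span (CPM per kb). On that scale the replication genes were well transcribed. In TT-Seq 31 of the 36 lay above the median of 13826 coding genes, with a median percentile of 72.2, and in unsheared total RNA 30 did, with a median percentile of 72.1. The same held for 29 in 4sU-Seq, 30 in sheared total RNA, 28 in S2P ChIP and 25 in N20 ChIP.

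The order of the genes changed with the fraction. In TT-Seq the highest were MCM7 (6.44 CPM per kb), GMNN (6.26) and CDC45 (5.34), and MCM7 did not differ from GMNN beyond the spread of the GMNN libraries (SD 0.408). In unsheared total RNA the highest were CDT1 (23.4), MCM7 (20.1) and FEN1 (17.4). CDT1 also led both ChIP assays, with 84.9 CPM per kb in S2P ChIP, the 99.9th percentile of coding genes, and 17.1 in N20 ChIP. In TT-Seq, by contrast, CDT1 had 3.51 CPM per kb and a percentile of 88.5. RPA3 was the lowest member in RNA on this scale, from 0.141 to 0.201 CPM per kb, and RFC3 was lowest in both ChIP assays. For RPA3, the 41 of its 410 bins most covered in unsheared total RNA held 98.2% of the counts in TT-Seq. They held 98.4% in both 4sU-Seq and sheared total RNA (group means). Its CPM were thus divided by a span most of which held few counts, and its rank may differ over a shorter span. The RefSeq spans of RPA3 (82.1 kb), RRM2 (88.4 kb), RFC3 (159.2 kb) and POLA1 (303.1 kb) are long and may reach past the main transcript, and every level, balance and ratio of these genes is over the whole span.

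**Figure D1:**
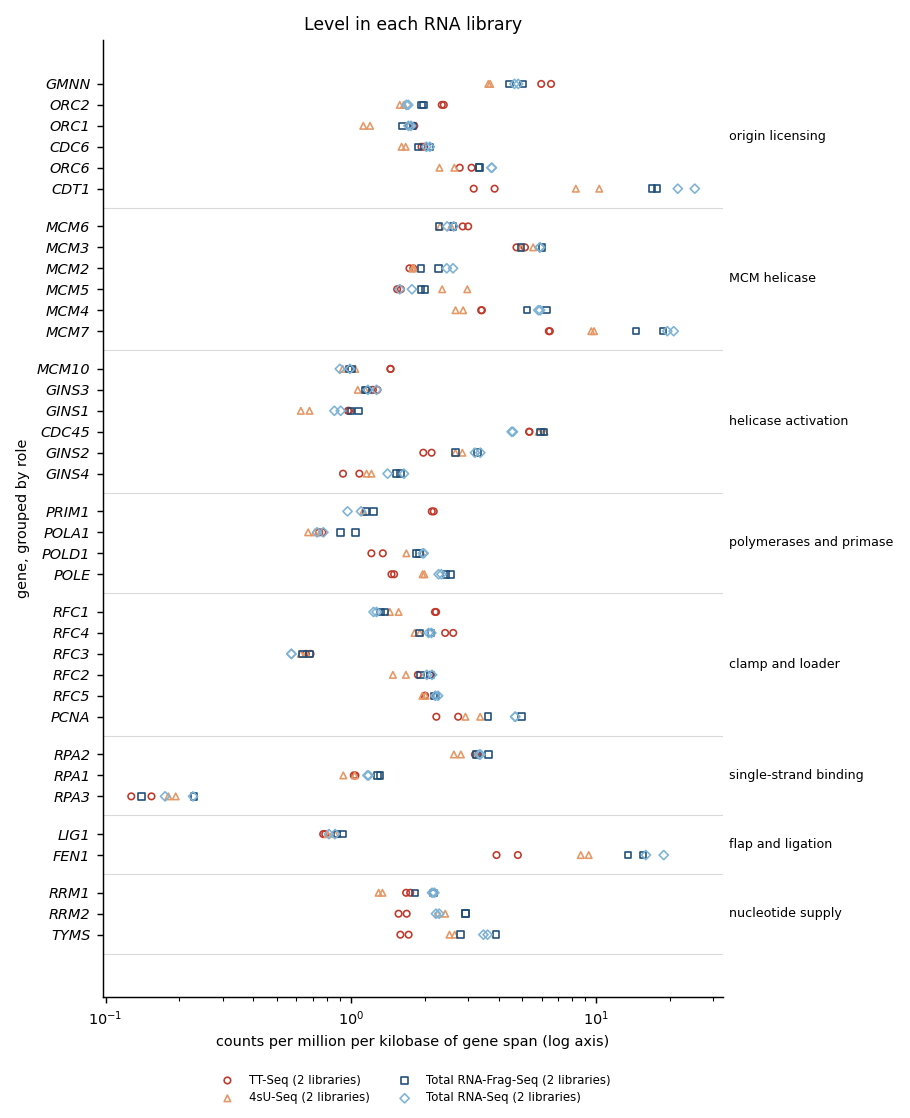
Level of each replication gene in the 8 RNA libraries (squares sheared, diamonds unsheared total RNA), as CPM per kb of gene span on a log axis, with genes grouped by role and 1 symbol per library. MCM7 is near the right in every fraction, and CDT1 moves from 23.4 in unsheared total RNA to 3.51 in TT-Seq (group means).

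TT-Seq against sheared total RNA compares the labelled pieces with all pieces of broken RNA, that is, RNA made within 5 min with RNA of any age. Of the 36 replication genes 7 were higher in TT-Seq, 18 were lower and 11 did not pass the test (edgeR quasi-likelihood test, Benjamini-Hochberg adjusted p under 0.05 over all genes). Over all genes tested 66.5% passed, 33.0% higher and 33.5% lower. The members' median log2 fold change was -0.20, against -0.02 for all genes tested and -0.10 for coding genes alone. Of the coding genes 30.2% were higher and 38.1% lower. The lowest were CDT1, FEN1, MCM7 and TYMS, and the highest PRIM1, RFC1 and MCM10. Counts of members called ranged from 21 to 26 when any 1 RNA library was left out, and the sign of a called member did not turn under any of the scalings tried.

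Among the 6 licensing genes other than the MCM ring, 2 were higher, 1 was lower and 3 did not pass. CDT1, the loader of the helicase (chr16:88803789-88809258, plus strand), had 17.1 and 20.8 CPM in the TT-Seq libraries, 44.6 and 55.6 in 4sU-Seq, 95.6 and 91.1 in sheared total RNA and 116 and 136 in unsheared total RNA. The libraries fell into 4 steps that did not overlap, lowest in TT-Seq. The log2 fold change of TT-Seq against sheared total RNA was -2.30 ± 0.12 (SE; adjusted p = 1.31e-08), a level 4.92-fold lower and the largest fall of the 36.

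Geminin, the protein that inhibits CDT1, is encoded by GMNN (chr6:24774937-24786099, plus strand), which moved the other way. It had 72.0 and 65.7 CPM in the TT-Seq libraries, 40.7 and 40.0 in 4sU-Seq, 55.4 and 48.9 in sheared total RNA and 51.1 and 52.9 in unsheared total RNA. Its TT-Seq libraries were above all others and its 4sU-Seq libraries below all others. The fold change was 0.40 ± 0.08 on the log2 scale (adjusted p = 0.000258), 1.32-fold higher. ORC2, a subunit of the origin recognition complex, was also higher (0.27). CDC6, the loading ATPase (chr17:40287879-40304657, plus strand), had 32.6 and 33.5 CPM in the TT-Seq libraries, within its 35.4 and 31.5 CPM in sheared total RNA, and 28.1 and 27.0 in 4sU-Seq and 35.3 and 34.1 in unsheared total RNA. Its log2 fold change of -0.02 ± 0.08 did not pass (adjusted p = 0.836). The other listed subunits, ORC1 (0.05) and ORC6 (-0.18), did not pass either. ORC6 did with no scaling beyond library sums (-0.21, adjusted p = 0.0358) and with only the 4 libraries compared in the fit (-0.19, adjusted p = 0.0496).

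Of the 6 MCM subunits, 1 was higher, 4 were lower and 1 did not pass, although their proteins form 1 ring. MCM7 (chr7:100092728-100101397, minus strand), whose span also holds the microRNA genes MIR25 and MIR106B, had 55.2 and 55.7 CPM in the TT-Seq libraries, 82.2 and 84.3 in 4sU-Seq, 161 and 125 in sheared total RNA and 168 and 178 in unsheared total RNA. The labelled libraries were all below the unpurified libraries, with a log2 fold change of -1.37 ± 0.09 (adjusted p = 2.43e-08), 2.59-fold lower. MCM6 (chr2:135839626-135876443, minus strand) had 111 and 105 CPM in the TT-Seq libraries, 94.2 and 85.0 in 4sU-Seq, 95.9 and 84.1 in sheared total RNA and 96.6 and 90.9 in unsheared total RNA. Only its TT-Seq libraries stood above the rest, by 0.26 ± 0.08 (adjusted p = 0.00622). That call was lost without library 2 of sheared total RNA (0.18, adjusted p = 0.0566).

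MCM2 (chr3:127598411-127622436, plus strand), a subunit with a histone-binding tail, had 41.6 and 43.1 CPM in the TT-Seq libraries, 43.4 and 42.9 in 4sU-Seq, 54.5 and 46.3 in sheared total RNA and 62.6 and 59.1 in unsheared total RNA. Both labelled groups were below both total groups. The difference of -0.25 ± 0.08 passed (adjusted p = 0.0116) and was lost without library 1 of TT-Seq (-0.22, adjusted p = 0.0889) or library 1 of sheared total RNA (-0.12, adjusted p = 0.266). MCM4 (-0.76) and MCM5 (-0.32) were lower as well. For MCM5 the call was lost without library 1 of TT-Seq (adjusted p = 0.0537) or library 2 of sheared total RNA (adjusted p = 0.0669). MCM3 had -0.16 and did not pass, but gained a call without library 2 of sheared total RNA (-0.27).

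In helicase activation 1 of 6 genes was higher, 3 were lower and 2 did not pass. MCM10, an initiation factor that helps the helicase start (chr10:13161558-13211110, plus strand), had 71.9 and 72.0 CPM in the TT-Seq libraries, 51.7 and 45.9 in 4sU-Seq, 49.9 and 48.8 in sheared total RNA and 49.2 and 44.7 in unsheared total RNA. TT-Seq stood apart while the other 3 groups overlapped, and the log2 fold change was 0.54 ± 0.08 (adjusted p = 1.00e-05), 1.46-fold higher. GINS4, a subunit of the GINS complex, had 17.1 and 14.7 CPM in the TT-Seq libraries, 19.2 and 18.3 in 4sU-Seq, 25.2 and 24.1 in sheared total RNA and 22.3 and 26.0 in unsheared total RNA. Labelled libraries were below total libraries, by -0.64 ± 0.10 (adjusted p = 3.11e-05), 1.55-fold lower. GPAT4-AS1 lies in the same span on the other strand. CDC45 was lower by a small amount (-0.17, adjusted p = 0.0111), a call that was lost without either TT-Seq library (adjusted p = 0.0682 and 0.0686) or without library 2 of sheared total RNA (0.0616).

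Primase and the polymerases split. PRIM1, the catalytic subunit of primase (chr12:56731580-56752323, minus strand), had 44.5 and 45.3 CPM in the TT-Seq libraries, 23.4 in both 4sU-Seq libraries, 24.0 and 25.7 in sheared total RNA and 20.2 and 22.9 in unsheared total RNA. TT-Seq was far above the other 3 groups, which lay close together. Its log2 fold change of 0.85 ± 0.08 (adjusted p = 1.56e-07), 1.81-fold higher, was the largest rise of the 36. POLE, the catalytic subunit of the leading strand polymerase (chr12:132623762-132687342, minus strand), had 93.1 and 95.5 CPM in the TT-Seq libraries, 127 and 125 in 4sU-Seq, 155 and 162 in sheared total RNA and 149 and 145 in unsheared total RNA. It was lowest in TT-Seq, with -0.75 ± 0.06 (adjusted p = 1.37e-08), 1.68-fold lower. POLD1, of the lagging strand polymerase (-0.55), and POLA1, the polymerase that extends primers (-0.37), were lower too, so 3 of the 4 genes of this role fell and 1 rose.

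Of the clamp and its loader, 2 of 6 genes were higher, 1 was lower and 3 did not pass. RFC1, the large loader subunit (chr4:39287456-39366362, minus strand), had 174 and 176 CPM in the TT-Seq libraries, 124 and 114 in 4sU-Seq, 104 and 109 in sheared total RNA and 100.54 and 97.7 in unsheared total RNA. Its level stepped down from TT-Seq to 4sU-Seq to total RNA, with 0.71 ± 0.06 (adjusted p = 4.60e-08), 1.64-fold higher. PCNA, the clamp (chr20:5114953-5126622, minus strand), had 31.8 and 25.9 CPM in the TT-Seq libraries, 39.0 and 34.0 in 4sU-Seq, 57.5 and 42.1 in sheared total RNA and 54.2 and 54.3 in unsheared total RNA. TT-Seq was lowest and 4sU-Seq next, without overlap, and the 2 sheared total RNA libraries lay on either side of unsheared total RNA; the fold change was -0.79 ± 0.14 (adjusted p = 0.000499), 1.73-fold lower. RFC4 was higher (0.32). RFC2, RFC3 and RFC5, at -0.02, 0.03 and -0.14, did not pass. RFC5 did with no scaling beyond library sums (-0.17, adjusted p = 0.0365) and over the authors' transcription units (-0.25, adjusted p = 0.00172).

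Of the 3 RPA subunits 1 was lower and 2 did not pass. RPA2 (chr1:27891524-27914797, minus strand) had 76.7 and 74.4 CPM in TT-Seq against 84.6 and 75.4 in sheared total RNA, and its -0.08 ± 0.07 did not pass (adjusted p = 0.305). RPA3 (chr7:7636518-7718607, minus strand) had 12.6 and 10.4 CPM in TT-Seq against 18.8 and 11.5 in sheared total RNA. The ranges overlapped and -0.41 ± 0.21 did not pass (adjusted p = 0.111), but it did without library 2 of sheared total RNA (-0.69, adjusted p = 0.00190) and with no filter on low counts (-0.38, adjusted p = 0.00226). Of its 410 bins 389 also belong to UMAD1 on the other strand. RPA1, the large subunit, was lower (-0.33).

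Both genes that finish lagging strand fragments were lower. FEN1, the flap nuclease (chr11:61792911-61797238, plus strand), had 20.1 and 16.5 CPM in the TT-Seq libraries, 39.2 and 36.4 in 4sU-Seq, 65.3 and 56.7 in sheared total RNA and 79.2 and 67.0 in unsheared total RNA. As for CDT1, the 4 groups were in the same order without overlap, and FEN1 was 3.34-fold lower (log2 -1.74 ± 0.11, adjusted p = 8.06e-09). LIG1, the DNA ligase (chr19:48115445-48170344, minus strand), had 42.4 and 43.2 CPM in TT-Seq against 48.2 and 51.0 in sheared total RNA. Its -0.21 ± 0.07 passed (adjusted p = 0.0188) and was lost without library 1 or 2 of TT-Seq (adjusted p = 0.109 and 0.0618) or library 2 of sheared total RNA (0.119).

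All 3 genes of nucleotide supply were lower. TYMS, the thymidylate synthase gene (chr18:657653-673578, plus strand), had 25.5 and 27.5 CPM in the TT-Seq libraries, 42.4 and 40.4 in 4sU-Seq, 62.4 and 44.8 in sheared total RNA and 57.8 and 55.5 in unsheared total RNA. TT-Seq was below every other library and the difference was -1.02 ± 0.12 (adjusted p = 9.38e-06), 2.03-fold lower. ENOSF1 and TYMSOS overlap its span on the other strand. RRM2, the small subunit of ribonucleotide reductase (chr2:10122568-10211010, plus strand), had 138 and 149 CPM in the TT-Seq libraries, 214 and 199.8 in 4sU-Seq, 259 in both sheared total RNA libraries and 197 and 203 in unsheared total RNA, so that 4sU-Seq and unsheared total RNA overlapped. It was 1.80-fold lower in TT-Seq than in sheared total RNA (log2 -0.85 ± 0.06, adjusted p = 5.83e-09). RRM1, the large subunit (chr11:4094685-4138932, plus strand), had 77.5 and 74.6 CPM in the TT-Seq libraries, 59.7 and 57.6 in 4sU-Seq, 96.3 and 80.9 in sheared total RNA and 97.2 and 95.1 in unsheared total RNA. Its -0.22 ± 0.08 (adjusted p = 0.0169) was lost without library 2 of TT-Seq (adjusted p = 0.108) or library 1 of sheared total RNA (0.401).

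**Figure D2:**
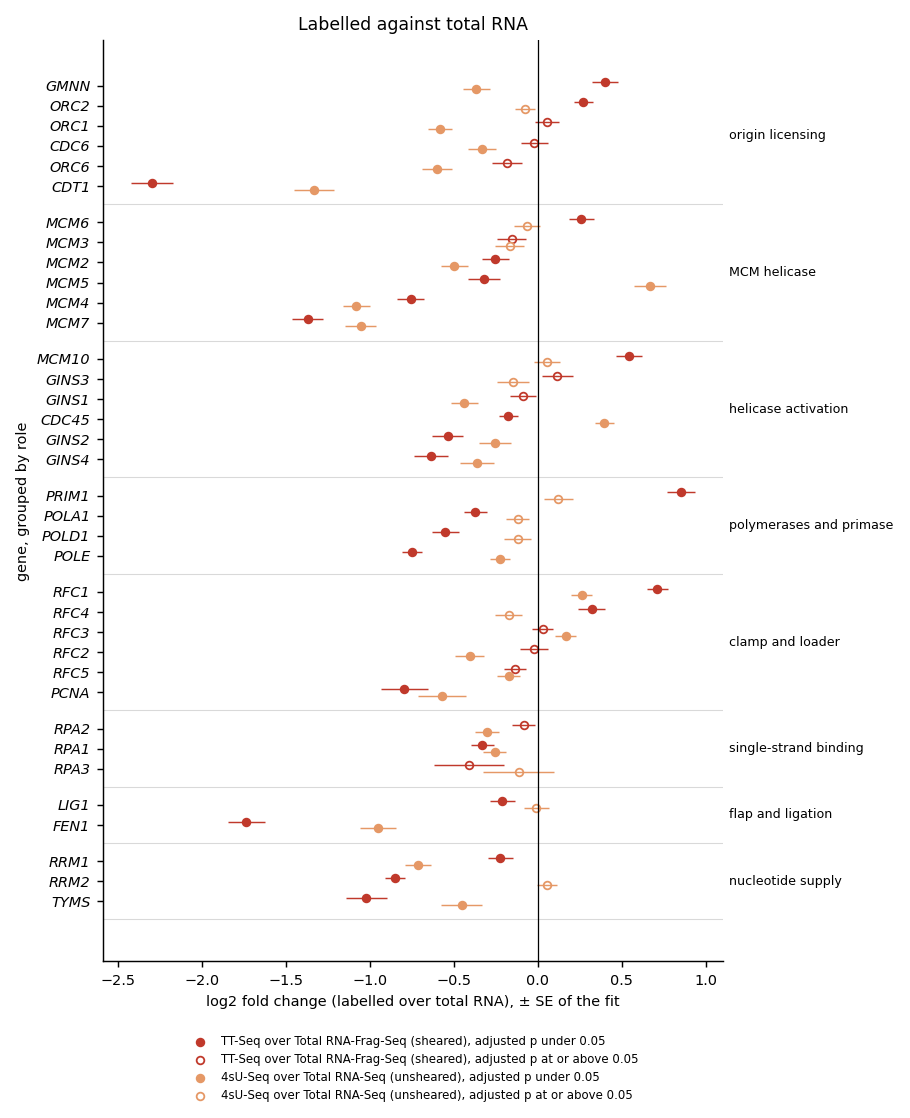
Log2 fold change ± SE of labelled over total RNA for the 36 replication genes, for sheared RNA (TT-Seq over sheared total RNA, red) and unsheared RNA (4sU-Seq over unsheared total RNA, orange); filled points passed an adjusted p of 0.05. CDT1 is leftmost in both, at -2.30 and -1.33, while PRIM1 and RFC1 lie right of 0 for sheared RNA at 0.85 and 0.71.

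The wider replication pathway, a list of 52 further genes of which 51 were tested, was also divided: 17 were higher, 22 lower and 12 did not pass, with a median of 0.03. Its lowest were CHTF18, of an alternative clamp loader (-2.37), RECQL4, an initiation factor (-1.85), and RNASEH2A, which removes RNA from DNA (-1.70). Its highest were MCMBP, an MCM binding protein (1.014), MCM9, an MCM-like helicase (0.80), and ORC5, of the origin recognition complex (0.74).

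The fold change of TT-Seq against sheared total RNA was also set beside gene length. Across 13826 coding genes Spearman's rho between span length and the log2 fold change was 0.39, and across the 36 members it was 0.21, where the points share libraries and differ in depth. The 18 members under 24.4 kb gave a median of -0.22 (3 higher, 9 lower), and the 18 longer ones -0.19 (4 higher, 9 lower). Coding genes of the same lengths had medians of -0.52 and 0.11, and 15.8% and 40.7% of them were higher and 58.2% and 23.7% lower. The median of the longer replication genes was thus below, and that of the shorter ones above, the median of coding genes of their length. These are descriptions, with no test.

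4sU-Seq against unsheared total RNA makes the same comparison without shearing. Here 4 replication genes were higher, 20 lower and 12 did not pass, where 55.8% of all genes passed, 28.0% higher and 27.8% lower. The median was -0.24 against 0.02 for all genes and -0.08 for coding genes alone, of which 23.8% were higher and 34.4% lower. Across the members Spearman's rho between span length and this log2 fold change was 0.66, and across coding genes 0.33. The 18 members under 24.4 kb gave a median of -0.39 (0 higher, 14 lower), and the 18 longer ones -0.09 (4 higher, 6 lower). Coding genes of the same lengths had medians of -0.28 and 0.06, so both member medians were below them. Whether length accounts for the lower calls was not tested. Of the licensing genes 5 of 6 were lower and none was higher. MCM5, an MCM subunit (chr22:35400140-35455031, plus strand), was the highest: it had 163 and 129 CPM in 4sU-Seq against 86.7 and 97.2 in unsheared total RNA, and 84.6 and 87.7 in TT-Seq and 106 and 109.7 in sheared total RNA. The 2 4sU-Seq libraries were above all others, with 0.67 ± 0.10 against unsheared total RNA (adjusted p = 5.67e-05).

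CDC45 (0.40 ± 0.06, adjusted p = 2.11e-05) and RFC1 (0.26 ± 0.06, adjusted p = 0.00209) were the next highest. CDC45, which joins the MCM ring to form the active helicase (chr22:19479466-19520612, plus strand), had 254 and 240.3 CPM in 4sU-Seq against 186 and 189 in unsheared total RNA, without overlap. At the other end stood CDT1 (-1.33 ± 0.12, adjusted p = 2.30e-06), MCM4 (-1.08 ± 0.08, adjusted p = 4.75e-08) and MCM7 (-1.05 ± 0.09, adjusted p = 7.89e-07). MCM4 had 49.3 and 45.9 CPM in 4sU-Seq against 99.9 and 102 in unsheared total RNA, and 58.4 and 58.8 in TT-Seq against 108 and 90.0 in sheared total RNA. All 4 labelled libraries of MCM4 were below all 4 total RNA libraries.

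The test of the difference between the sheared and the unsheared comparison, an interaction in the same edgeR fit, passed for 23 replication genes, 14 in the positive and 9 in the negative direction. Over all genes 40.6% passed, 17.6% positive and 23.0% negative, against 38.9% positive and 25% negative among the members. Positive values mean that purification raised a gene more, or lowered it less, among sheared RNA. The highest were GMNN (0.77 ± 0.11, adjusted p = 7.10e-05), PRIM1 (0.73 ± 0.12, adjusted p = 0.000187) and ORC1, the largest origin recognition subunit (0.64 ± 0.10, adjusted p = 0.000184). The lowest were MCM5 (-0.99 ± 0.13, adjusted p = 9.05e-05), CDT1 (-0.97 ± 0.17, adjusted p = 0.000802) and RRM2 (-0.90 ± 0.09, adjusted p = 2.37e-06). GMNN, MCM5 and CDC45 passed in opposite directions in the 2 comparisons. GMNN was 0.40 among sheared RNA and -0.37 among unsheared RNA, MCM5 -0.32 and 0.67, and CDC45 -0.17 and 0.40. The calls of MCM5 and CDC45 among sheared RNA rested on single libraries, as given above.

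TT-Seq against 4sU-Seq compares the labelled RNA with and without shearing. Of the replication genes 15 were higher, 11 lower and 10 did not pass, where 56.6% of all genes passed, 27.9% higher and 28.7% lower. The medians were 0.07 for the members and -0.03 for all genes. Without scaling beyond library sums the split became 9 higher and 15 lower, and the median of all genes moved by -0.15. The licensing genes were higher in 5 of 6 cases. PRIM1 (0.94 ± 0.08, adjusted p = 9.21e-08), GMNN (0.77 ± 0.08, adjusted p = 4.35e-07) and ORC1 (0.61 ± 0.07, adjusted p = 2.51e-06) were highest. ORC1 (chr1:52372829-52409503, minus strand) had 66.7 and 63.7 CPM in TT-Seq, against 44.1 and 41.4 in 4sU-Seq, while both total RNA groups were at 59.7 to 65.9 CPM. CDT1 (-1.40 ± 0.12, adjusted p = 1.36e-06), FEN1 (-1.04 ± 0.11, adjusted p = 1.86e-06) and MCM5 (-0.76 ± 0.09, adjusted p = 1.13e-05) were lowest.

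Shearing alone, in sheared total RNA against unsheared total RNA, had fewer calls: 6 were higher, 3 lower and 27 did not pass, where 27.2% of all genes passed, 17.3% higher and 9.81% lower, and both medians were near 0 (-0.02 and -0.01). The split was 4 higher and 4 lower with DESeq2's size factors and 3 higher and 8 lower without scaling, which moved the median of all genes by -0.14. CDC45 (0.40 ± 0.06, adjusted p = 9.77e-05), POLA1 (0.38 ± 0.07, adjusted p = 0.000754) and RRM2 (0.38 ± 0.06, adjusted p = 0.000296) were highest. POLA1 (chrX:24693918-24996986, plus strand) had 275 and 316 CPM in sheared total RNA and 221 and 234 in unsheared total RNA, without overlap.

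CDT1 (-0.43 ± 0.12, adjusted p = 0.0160), MCM7 (-0.27 ± 0.09, adjusted p = 0.0454) and MCM2 (-0.27 ± 0.08, adjusted p = 0.0234) were lowest after shearing alone, and these 3 calls rested on single libraries. Without library 2 of sheared total RNA they had adjusted p of 0.135, 0.239 and 0.156, and 3 members in all were called. There were 14 calls without library 1 of that group, 4 without library 1 of unsheared total RNA and 5 without library 2. CDT1 was also lost without library 1 of sheared total RNA (0.0594) or library 2 of unsheared total RNA (0.122). MCM7 was lost without either 4sU-Seq library (0.0869 and 0.0881) or either unsheared total RNA library (0.0794 and 0.183), and MCM2 without library 1 of unsheared total RNA (0.135).

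The position of the counts within each gene was described next. For each gene the 10% of its 200 bp bins most covered in unsheared total RNA was taken, and the share of the counts falling there was compared in the other RNA groups. They are called mature-RNA bins here as a label only, since no exon annotation was used. Because the bins were chosen in total RNA, the choice itself favours a higher share in sheared total RNA than in labelled RNA. The median share of the replication genes was 23.8% and 22.7% in the TT-Seq libraries, 37.1% and 37.6% in 4sU-Seq and 48.3% and 47.1% in sheared total RNA. Over all 13868 genes the medians were 23.8% and 23.8%, 32.2% and 33.3%, and 38.7% and 37.9%. In TT-Seq the members thus had about the share of other genes, and in total RNA a higher one.

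The share was lower in TT-Seq than in sheared total RNA for 34 of the 36 replication genes and higher for none (limma, adjusted p under 0.05), where 76.6% of all genes passed, 70.8% lower and 5.75% higher. The median difference was -24.5 percentage points against -12.7 for all genes and -15.2 for coding genes alone, of which 80.4% were lower and 2.61% higher. MCM2 had 17.3% and 15% in the TT-Seq libraries, 39.4% and 42.1% in 4sU-Seq and 68.5% and 65.1% in sheared total RNA, a difference of -50.7 ± 2.09 points (adjusted p = 3.53e-05) and the widest. RRM1 went from 26.5% and 24.6% in TT-Seq through 47.1% in both 4sU-Seq libraries to 76.0% and 69.2% (-47.1 ± 2.67 points, adjusted p = 4.20e-05). TYMS had 33.0% and 32.8%, 63.0% and 64.3%, and 82.2% and 76.2% (-46.3 ± 2.48 points, adjusted p = 3.80e-05). For each of these genes the 3 groups were separate, with 4sU-Seq between the others.

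The smallest differences were those of RPA3, RFC3 and CDC45. RPA3 had 97.3% to 99.1% of its counts in these bins in every library, so nearly all of its signal came from 10% of the long RefSeq span (-0.19 points, not passed). RFC3, a small loader subunit, had 39.3% and 41.0% in TT-Seq and 45.0% and 44.1% in sheared total RNA (-4.41 points, adjusted p = 0.0695). CDC45 had 19% and 18.6% against 23.5% and 22.5%. Its -4.18 ± 1.43 points passed (adjusted p = 0.0375), and did not without either TT-Seq library (adjusted p = 0.133 and 0.163), either 4sU-Seq library (0.0538 and 0.0557) or library 1 of sheared total RNA (0.0854).

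**Figure D3:**
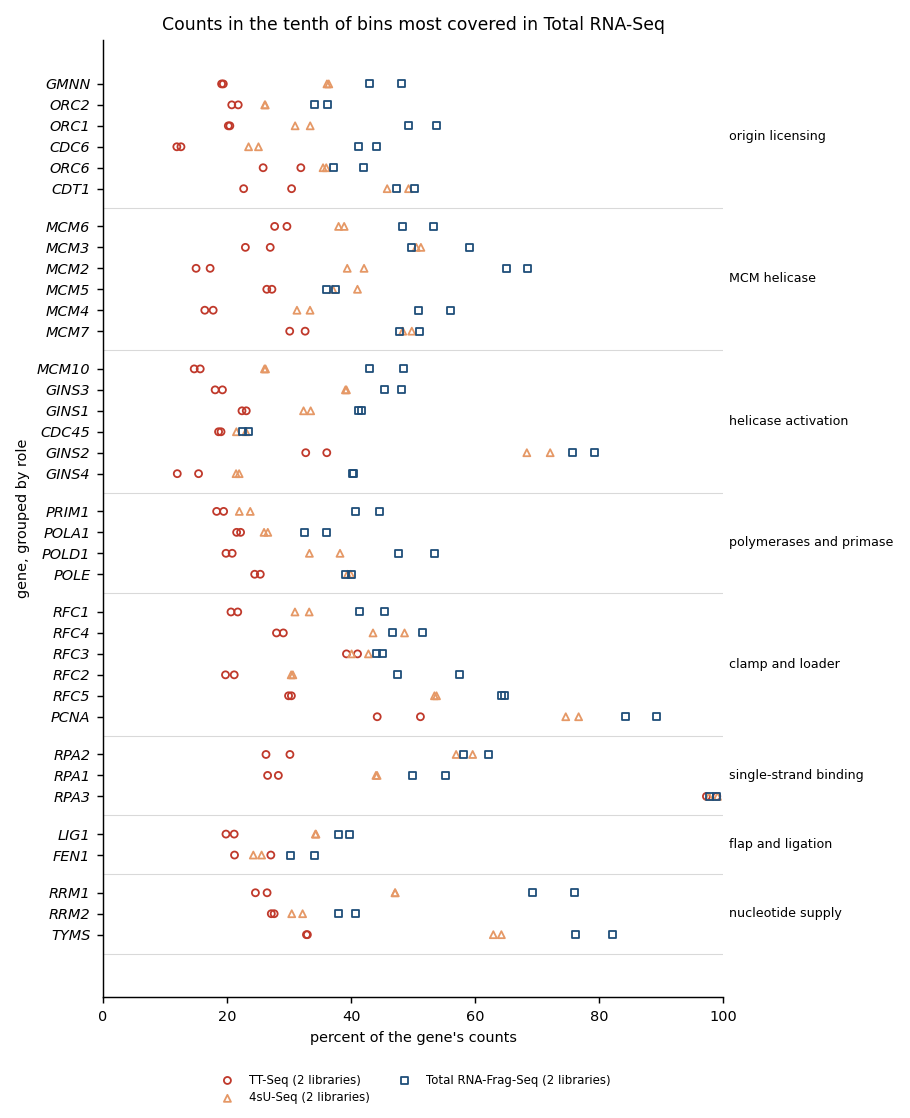
Percent of each replication gene's counts that fall in the 10% of its bins most covered in unsheared total RNA, with 1 symbol per library of TT-Seq, 4sU-Seq and sheared total RNA (squares). TT-Seq lies left of sheared total RNA in 34 genes that passed the test, and RPA3 sits near 99% in all.

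Along the gene, the span was also cut into 20 equal windows. The last window, at the 3′ end, held a median of 24.6% and 21.7% of a replication gene's signal in sheared total RNA and 25.3% and 22.4% in unsheared total RNA. It held 16.0% and 16.9% in 4sU-Seq and 9.63% and 8.28% in TT-Seq. An even spread would give 5% in each window. The labelled RNA was thus more evenly spread than total RNA, and most evenly in TT-Seq.

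**Figure D4:**
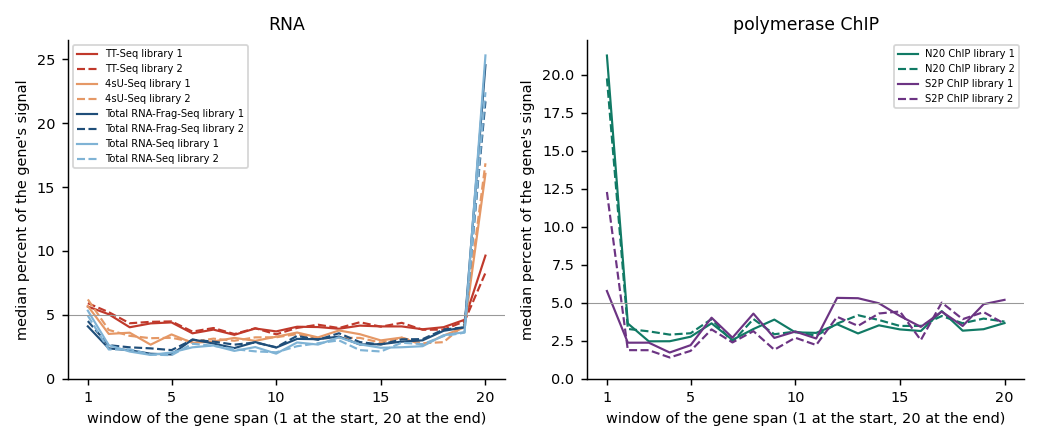
Median percent of a gene's signal in each of 20 equal windows from start to end over the 36 replication genes, for RNA (left) and polymerase ChIP (right), with 1 line per library and a grey line at an even 5%. The last window rises to 25.3% in unsheared total RNA and 8.28% to 9.63% in TT-Seq, and the first to 21.3% in N20 ChIP.

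The 5′ to 3′ balance, log2 of the counts in the first of 3 equal parts of the span over the last, asks whether shearing before purification shifted labelled RNA toward gene starts. It was higher in TT-Seq than in 4sU-Seq for 19 replication genes, lower for 2 and not passed for 15 (limma), where 44.2% of all genes passed, 37.4% higher and 6.75% lower. The median difference was 0.60 against 0.32, and 0.35 for coding genes alone, of which 40.9% were higher and 6.39% lower. In the wider replication list, with 49 genes tested, it was 0.22, with 38.8% higher and 4.08% lower. FEN1 had -1.43 and -1.28 in TT-Seq, against -2.55 and -2.78 in 4sU-Seq, a rise of 1.31 ± 0.19 (adjusted p = 0.00262). TYMS had -0.62 and -0.51 against -1.78 and -1.65 (1.15 ± 0.18, adjusted p = 0.00390). RPA3 had the highest value, 1.35 ± 0.86, but did not pass (adjusted p = 0.243), since library 1 of 4sU-Seq stood at -9.40 and all other RNA libraries between -6.85 and -5.78. The difference for RPA3 was 2.67 without library 2 of 4sU-Seq, and over all alternatives it ran from 0.04 to 2.67. Balances this far below 0 mean that the first part of the span held very few counts beside the last. The values of RPA3 thus depend on a small number of counts and on the pseudocount, and no shift is read from them.

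All 3 nucleotide supply genes and both genes of flap removal and ligation were among the 19, with 4 of 6 in helicase activation, 3 of 6 MCM genes and 1 of 6 licensing genes. PCNA, also among the 19, stood at -2.81 in TT-Seq and -3.84 in 4sU-Seq (group means). Its first part thus also held few counts beside the last, and 86.8% of its sheared total RNA counts lay in its mature-RNA bins. Left out 1 at a time, libraries gave 11 to 25 calls, 11 without library 2 of TT-Seq. The 2 members called lower were POLA1 and PRIM1, which make primers together. PRIM1 had 0.34 and 0.43 in TT-Seq, against 0.82 and 0.73 in 4sU-Seq (-0.39 ± 0.10, adjusted p = 0.0216). POLA1 had 0.17 and 0.23 against 0.65 and 0.71 (-0.47 ± 0.12, adjusted p = 0.0181). The groups did not overlap, but both calls were lost without any 1 of the 4 libraries compared, at adjusted p of 0.0611 to 0.118 for PRIM1 and 0.0615 to 0.104 for POLA1. With 2 equal parts of the span in place of 3, neither passed (PRIM1 -0.31, adjusted p = 0.0519, and POLA1 -0.25, adjusted p = 0.0628), and 23 members were called higher and 0 lower. RFC5, a small loader subunit, had the lowest value (-0.80 ± 0.29, adjusted p = 0.0633) and did not pass, though it did with a minimum of 100 counts (adjusted p = 0.0313). In 2 equal parts it was 0.44 (adjusted p = 0.0274), so its direction depends on that choice. WSB2 overlaps RFC5 on the other strand.

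Between the total RNA groups no member passed: none of the 36 was called between sheared total RNA and unsheared total RNA by limma, 6 had an unadjusted p under 0.05, and 0.0913% of all genes were called, 0.0532% higher and 0.0380% lower. The median difference was 0.06 against 0.09 for all genes. The extremes were RPA1 (0.56, adjusted p = 0.0748), POLD1 (0.42, 0.174) and PCNA (0.33, 0.526) above and RRM2 (-0.53, 0.0748), MCM5 (-0.53, 0.147) and TYMS (-0.47, 0.214) below.

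Polymerase phosphorylated at serine 2 accompanies elongation, and S2P ChIP was compared with N20 ChIP over the same spans. Relative to other genes, 23 replication genes were higher in S2P ChIP, 1 was lower and 12 did not pass (edgeR), where 43.7% of all genes passed, 23.5% higher and 20.3% lower. The median was 0.69 against -0.01 for all genes and 0.17 for coding genes alone. Of the coding genes 31.9% were higher and 14.9% lower. All 6 MCM genes, all 3 of nucleotide supply and both of flap removal and ligation were higher. Without scaling beyond library sums the split was 9 higher and 7 lower, with the median of all genes moved by -0.50 and that of the members at 0.20, so the direction holds relative to other genes only. Without library 1 of S2P ChIP the members' median was 0.47 and more of the calls were lower, and without library 2 it was 0.83. Without library 1 or 2 of N20 ChIP it was 0.67 and 0.74, and fewer members passed, as did fewer of all genes. Over bins of no other gene 22 members were higher and 3 lower, where 44.5% of all genes passed. Over the authors' transcription units, tied to 20 members, 9 were higher and 2 lower, where 53.5% of all genes with a unit passed.

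CDT1 had 414 and 503 CPM in S2P ChIP and 94.3 and 90.9 in N20 ChIP, far apart, with a log2 difference of 2.31 ± 0.15 (adjusted p = 5.79e-06). POLD1, the catalytic subunit of the lagging strand polymerase (chr19:50384323-50418018, plus strand), had 303 and 301 against 94.7 and 87.5 (1.73 ± 0.14, adjusted p = 9.87e-06). CDC45 had 788 and 496 against 208 and 199.96 (1.65 ± 0.21, adjusted p = 0.000405), where the 2 S2P libraries themselves differed widely. In RNA, CDT1, the highest of the 36 in this comparison, was the lowest in TT-Seq against sheared total RNA.

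The lowest were PCNA, GMNN and RPA3. GMNN was the only member called lower in the main fit, and the alternatives above called more. It had 7.94 and 10.3 CPM in S2P ChIP and 17.5 and 13.7 in N20 ChIP (-0.77 ± 0.24, adjusted p = 0.0230). Its call was lost without library 1 (-0.59) or 2 (-0.94) of N20 ChIP. PCNA had 9.02 and 17.5 against 30.1 and 18.9, ranges that did not overlap but lay close, and -0.89 ± 0.37 did not pass (adjusted p = 0.0985). It passed without library 1 (-0.48, adjusted p = 0.0279) or library 2 (-1.43, adjusted p = 4.21e-11) of S2P ChIP, with the lone library assumed to vary like the other group. RPA3 had 24.3 and 21.0 against 32.4 and 30.1 (-0.46 ± 0.17, adjusted p = 0.0526) and passed without library 1 of S2P ChIP (-0.59, adjusted p = 0.00227). ChIP has no strand, and over the bins of RPA3 that no other gene covers the value was -1.58 (adjusted p = 0.00155), so its size depends on which bins are counted.

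The start to body ratio, log2 of the mean bin count from 1 bin before to 2 bins after the start bin over that of the rest of the span, was higher in N20 ChIP than in S2P ChIP for 21 replication genes, lower for none and not passed for 15 (limma), where 22.1% of all genes passed, 17.4% higher and 4.75% lower. The median difference was 1.46 against 0.31, and 0.48 for coding genes alone, of which 22.6% were higher and 4.95% lower. In the wider replication list, with 50 genes tested, it was 1.27, with 46% higher and 0% lower. All 6 MCM genes were among the 21, with 4 in helicase activation and 2 each in licensing, polymerases, clamp and loader, RPA and nucleotide supply, and 1 in flap removal and ligation. The members' median ratio was 3.26 and 3.48 in the N20 libraries and 1.16 and 2.33 in the S2P libraries, against 1.43 and 1.82 and 1.18 and 1.57 for all genes.

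The S2P libraries differed so much that the calls rested on one of them. Without library 1 of S2P ChIP no member, and no gene at all, was called by limma, although 18 members had an unadjusted p under 0.05 and their median difference was 0.91, against 0.15 for all genes. Without library 2 there were 21 calls, without library 1 of N20 ChIP 11 and without library 2 of N20 ChIP 10.

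CDT1 had -0.21 and 0.94 in N20 ChIP and -3.13 and -1.99 in S2P ChIP, so its body held more S2P signal than its start (difference 2.92 ± 0.55, adjusted p = 4.99e-06). CDC45 had 3.16 and 2.96 against -0.38 and 0.70 (2.90 ± 0.51, adjusted p = 8.75e-07), and RFC2, a small loader subunit (chr7:74231502-74254399, minus strand), 3.89 and 3.69 against 0.06 and 1.80 (2.86 ± 0.53, adjusted p = 3.15e-06). The N20 and S2P libraries of these genes did not overlap. Without library 1 of S2P ChIP these 3 had 2.35, 2.36 and 2.00, with adjusted p of 0.109, 0.0796 and 0.0811, and CDT1 was also lost without library 2 of N20 ChIP (adjusted p = 0.106). At the other end RRM1 (4.12 and 3.89 against 4.57 and 5.501, -1.03 ± 0.55, adjusted p = 0.169), POLD1 (2.71 and 2.96 against 2.76 and 4.35, -0.72) and ORC2 (4.10 and 3.99 against 4.27 and 5.09, -0.63) did not pass. RRM1 did with a pseudocount of 5 (-1.59, adjusted p = 0.0173). In RRM1 and ORC2 both S2P libraries lay above both N20 libraries.

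Of the promoters shown above, those of MCM6, MCM7, POLE and CDC45 belong to genes whose ratio was higher in N20 ChIP, by 1.87, 2.81, 2.80 and 2.90, while POLA1 had 0.09 and did not pass (adjusted p = 0.928). A relation between these letters and the ratio was not tested.

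**Figure D5:**
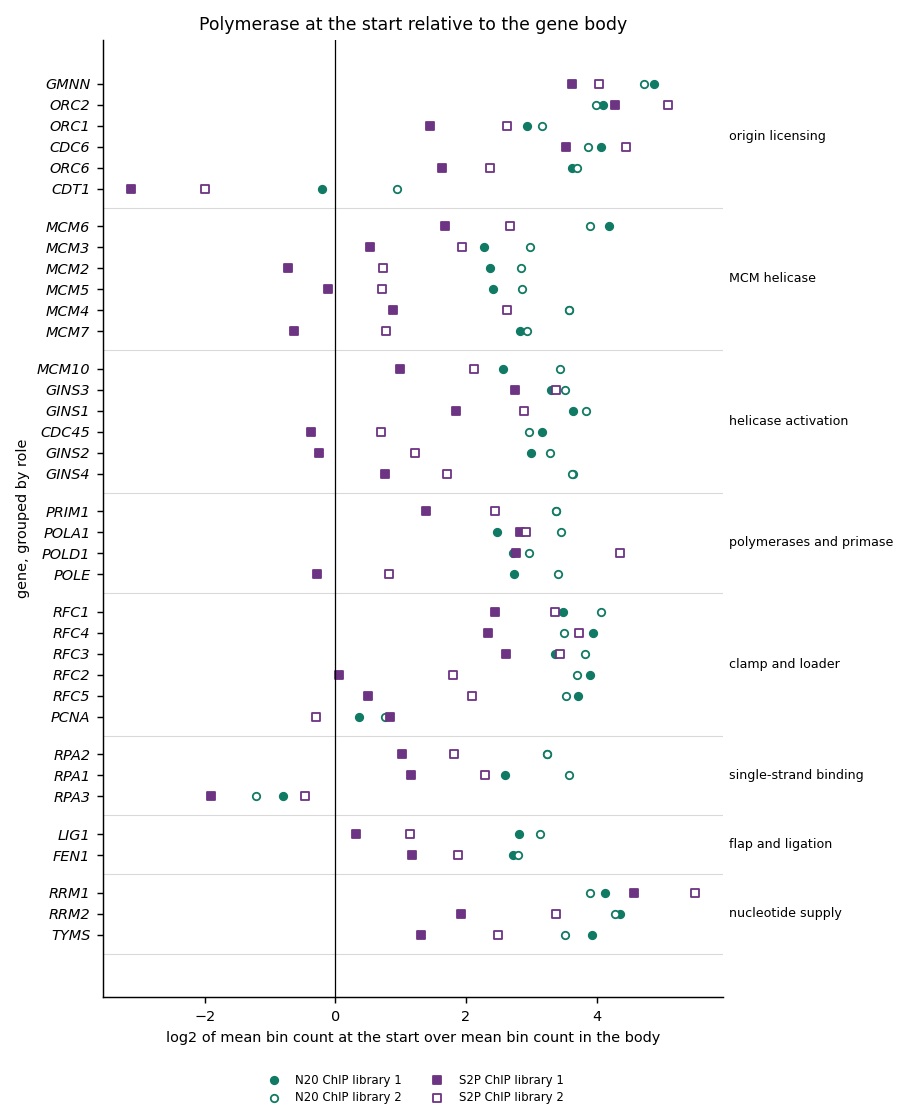
Log2 ratio of mean polymerase signal at the start to that in the body for the 36 replication genes, with filled symbols for library 1 and open symbols for library 2 of N20 ChIP (circles) and S2P ChIP (squares). N20 ChIP has medians of 3.26 and 3.48, and S2P ChIP of 1.16 and 2.33, with its 2 libraries apart.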

How the data were processed

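RNA and polymerase ChIP were measured in K562 in 6 groups of 2 libraries. The deposited table held whole-number read counts per 200 bp bin and strand, per the file headers. Reads had been mapped to hg38, and STAR 2.3.0 and Bowtie2 2.1.0 are named per the submitters' processing notes, which give no role for each. The authors' filters are not given in the sources used here. Bin counts were summed over each gene's RefSeq span (GRCh38.p14) on its strand, and ChIP counts over the same span. The strand came from the promoter table for 27276 genes and from the authors' transcription units for the others, which include 5 of the 36 members. Spans hold introns and exons together.

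Counts were tested with edgeR 4.0.16 (quasi-likelihood, TMM scaling, filterByExpr) in R 4.3.3. Positional measures were tested with limma 3.58.1: the balance and start ratio on a log2 scale with a pseudocount of 1, and shares in percentage points, for genes with at least 15 bins and 20 counts in each library. All RNA libraries entered 1 fit and all ChIP libraries another. P-values were adjusted by the Benjamini-Hochberg method over all genes, with a threshold of 0.05. The scripts were tested on simulated data. Alternatives were other scalings, no filter on low counts, DESeq2 1.42.0, each library left out, a replicate block, bins of no other gene, the authors' units, other pseudocounts and count minimums, and 2 equal parts of the span in place of 3.

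Named genes were, in each role, the highest and lowest in TT-Seq against sheared total RNA, with CDT1, CDC6, MCM2, PCNA, RRM2 and TYMS, and the 3 highest and 3 lowest in every other comparison and in the wider list. The MCM ring was taken as a role of its own. The members and lists were chosen with earlier results of these data known. The authors' rates and their exon and intron tables were not used here.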

Additional observations from a re-analysis of the deposited data

Results flagged for a closer look

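For 23 of the 36 replication genes the effect of purifying labelled RNA differed between sheared and unsheared RNA, by the interaction term of the edgeR fit. The log2 difference between the 2 effects was positive in 14 genes, meaning that purification raised a gene more, or lowered it less, among sheared RNA: GMNN (0.77), PRIM1 (0.73), ORC1 (0.64), RFC4 (0.50), MCM10 (0.49), RRM1 (0.49), RFC1 (0.45), ORC6 (0.42), RFC2 (0.38), ORC2 (0.35), GINS1 (0.35), MCM6 (0.33), MCM4 (0.32) and CDC6 (0.31). It was negative in 9 genes: MCM5 (-0.99), CDT1 (-0.97), RRM2 (-0.90), FEN1 (-0.78), CDC45 (-0.57), TYMS (-0.57), POLE (-0.53), POLD1 (-0.43) and POLA1 (-0.25). Of all genes tested, 40.6% passed the same test. The term also holds the change of total RNA on shearing, so its sign alone does not give the direction in labelled RNA. For POLA1 labelled RNA changed by 0.13 on shearing, which did not pass, and total RNA by 0.38. For CDC45 these values were -0.17 and 0.40.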

How the results depend on the processing

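With 2 libraries a group, the spread behind every test was estimated mainly from other genes, and a left-out library leaves a lone one assumed to vary like the other groups. The number of replication genes called, with each library left out in turn, was 21 to 26 for TT-Seq against sheared total RNA, 20 to 26 for 4sU-Seq against unsheared total RNA, 22 to 28 for TT-Seq against 4sU-Seq, 3 to 14 for sheared total RNA against unsheared total RNA, 17 to 24 for the interaction and 11 to 29 for S2P ChIP against N20 ChIP. It was 11 to 25 for the 5′ to 3′ balance between labelled groups, 0 in each case between total groups, 31 to 34 for the share in mature-RNA bins and 0 to 21 for the start to body ratio. The share of all genes called moved in these fits too. For S2P ChIP against N20 ChIP it fell without either N20 library and rose without either S2P library. The authors' units, which could be tied to 20 members, gave 16, 14, 16, 5, 13 and 11 calls for the first 6 comparisons in that order. Of all genes with a unit, 78.8%, 68.7%, 70.7%, 39.2%, 53.8% and 53.5% passed. The balance between total groups had 2 calls with at least 100 counts, and the start to body ratio 13 with a pseudocount of 5. In these 2 settings 5.14% and 15.4% of all genes passed. RFC5 turned to 0.44 in the balance between labelled groups with 2 equal parts of the span in place of 3. The replicate numbers were not taken to pair the samples, since not every pair of groups had a correlation of same-numbered deviations over 0.1: 5 of the 6 RNA pairs had 0.15 to 0.24, 4sU-Seq with sheared total RNA had -0.16, and the ChIP pair -0.01. With the replicate number as a block the counts were 26, 25, 28, 10, 23 and 24 for the first 6 comparisons, then 24, 0, 33 and 25. Of all genes 67.3%, 57.1%, 57.8%, 29.8%, 42.4% and 42.2% then passed, and 44.3%, 0%, 76.6% and 34.2%. The block gave a call to RPA3 in TT-Seq against sheared total RNA (-0.39, adjusted p = 0.0311), to RFC5 in the balance (-0.80, adjusted p = 0.0363) and to RRM1 in the start to body ratio (-1.03, adjusted p = 0.0104), where 24 members were then higher and 1 lower. It took the call of CDC45 in the share (adjusted p = 0.0549). Halved ChIP counts, chosen after seeing the data, gave 25 calls, where 44.4% of all genes passed. In TT-Seq against sheared total RNA, 535 gene results kept their direction and side of the threshold, 10 gained and 15 lost the call and 0 turned. Exons of a reference annotation were not used here, so that alternative was not run.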
